A study of Mus musculus with 6 samples.

Results

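The Hox genes of the thoracic aorta were examined on 6 Illumina mouse bead arrays, on which the brightness of each probe reports the amount of its transcript. All probes whose gene symbol on the platform is Hoxa, Hoxb, Hoxc or Hoxd followed by a number were taken, and names of antisense transcripts were left out. No such probe was dropped for its values, but the Hox genes as a set were chosen with earlier results of these data known. This gave 57 of the 45281 probes, which represent 38 Hox genes. These genes lie in 4 clusters, 10 genes of Hoxa on chromosome 6, 10 of Hoxb on chromosome 11, 9 of Hoxc on chromosome 15 and 9 of Hoxd on chromosome 2.

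The 3 mutant samples, called Ndst1_SMKO, are labelled SM22αCre+ and lack Ndst1 in smooth muscle, where the SM22α promoter drives the Cre recombinase. The enzyme encoded by Ndst1 adds sulfate to heparan sulfate, a sugar chain of cell surfaces and matrix that binds growth factors. The 3 wild-type (WT) samples are labelled SM22αCre-, with unaltered Ndst alleles, so Cre is a further difference between the genotypes. The mice were males of strain C57Bl/6, 3 to 4 months old. It is not stated whether each sample is a mouse of its own, and the p-values below therefore reflect the spread between samples, which may be technical. The labels name the thoracic aorta without saying which segment of it was taken, and Ndst1 itself was not analysed here. In such whole-tissue RNA, fewer cells of a type and less RNA per cell cannot be told apart.

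Hox genes encode transcription factors with a homeodomain, and their order along each cluster matches the order in which they are expressed along the body axis, from paralog 1 in the hindbrain region towards paralog 13 at the tail. Adult connective tissue and smooth muscle cells keep part of this code, so that the Hox genes they express mark the axial level from which they came. Retinoic acid sets the front limits of many Hox genes, Polycomb and trithorax complexes hold them off or on, and Pbx and Meis proteins bind DNA together with Hox proteins.

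The promoters of 3 genes on which the results below turn are printed here. The genes are Hoxb4, which passed the test, Hoxd4, which has the largest difference among the genes, and Hoxd9, with 1 of 2 probes called. Each printed promoter is the RefSeq sequence of mouse build GRCm38.p6, plus strand, from 250 bases before to 50 bases after the annotated start. Hoxb4 is at chr11:96318017-96318316, Hoxd4 at chr2:74721728-74722027 and Hoxd9 at chr2:74697513-74697812. Capitals mark matches on either strand to TAAT, the core bound by Hox homeodomains, to TGATNNAT, bound by Pbx with Hox proteins, to TGACAG, bound by Meis proteins, to AGGTCA, the hexamer recognized by nuclear receptors such as those for retinoic acid, and to TATAAA, the TATA box.
Hoxb4: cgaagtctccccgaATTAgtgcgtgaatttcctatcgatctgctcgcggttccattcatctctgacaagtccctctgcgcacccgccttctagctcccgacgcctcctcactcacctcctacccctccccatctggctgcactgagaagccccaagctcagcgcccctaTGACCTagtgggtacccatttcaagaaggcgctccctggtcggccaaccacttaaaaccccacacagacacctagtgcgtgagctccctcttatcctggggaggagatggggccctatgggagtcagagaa
Hoxd4: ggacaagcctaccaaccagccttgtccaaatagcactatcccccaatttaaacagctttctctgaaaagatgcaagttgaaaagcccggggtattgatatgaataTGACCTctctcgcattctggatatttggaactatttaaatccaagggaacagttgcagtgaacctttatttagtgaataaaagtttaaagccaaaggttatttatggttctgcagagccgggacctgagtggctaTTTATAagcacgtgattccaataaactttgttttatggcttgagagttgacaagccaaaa
Hoxd9: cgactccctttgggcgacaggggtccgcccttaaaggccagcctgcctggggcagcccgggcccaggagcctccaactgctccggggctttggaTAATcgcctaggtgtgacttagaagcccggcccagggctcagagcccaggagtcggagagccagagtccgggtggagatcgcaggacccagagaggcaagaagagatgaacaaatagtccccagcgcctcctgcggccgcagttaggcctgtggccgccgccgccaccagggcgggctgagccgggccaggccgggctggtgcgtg

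The Hoxb4 window holds 1 TAAT and 1 AGGTCA match, the Hoxd4 window 1 AGGTCA and 1 TATAAA match, and the Hoxd9 window 1 TAAT match, and no base lies in several matches. Promoters of 22 of the 38 Hox genes, 24 windows in all, were in the table used. TAAT occurred in 79.2% of these 24 windows and in 58.0% of all 32851 promoters. AGGTCA occurred in 29.2% of the Hox windows and 16.3% of all, TGATNNAT in 16.7% and 8.85%, TATAAA in 16.7% and 13.6%, and TGACAG in 8.33% and 19.2%. The Hox windows held a median of 14.5 CpG (range 4 to 45), against 7 in all promoters. A match is a string of letters and does not show that a factor binds there.

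A Hox code with its centre at the middle paralogs was detected in the aortas of both genotypes. A probe counts as detected on an array where its detection p-value, which compares it with negative control beads, is under 0.05, and it was tested where it was detected on at least 3 of the 6 arrays. By this rule 20 probes of 16 genes were tested. Of the genes with paralog numbers 4 to 8, 10 of 15 were tested, against 2 of 7 with numbers 1 to 3 and 4 of 16 with numbers 9 to 13. By cluster, 6 of 10 Hoxa genes, 5 of 10 Hoxb, 2 of 9 Hoxc and 3 of 9 Hoxd genes were tested.

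Detection of these genes hardly differed between the genotypes. In Ndst1_SMKO aortas 15 genes had a probe detected on all 3 arrays, and the same 15 did so in WT aortas: Hoxa2, Hoxa4, Hoxa5, Hoxa7, Hoxa13, Hoxb2, Hoxb4, Hoxb5, Hoxb6, Hoxb7, Hoxc6, Hoxc9, Hoxd4, Hoxd8 and Hoxd9. The remaining tested gene, Hoxa9, is a factor of blood stem cells and of endothelium. Both of its tested probes were dim, the one with the higher mean being detected on 2 mutant and 1 WT arrays and the other on 1 mutant and 2 WT arrays.

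**Figure D1:**
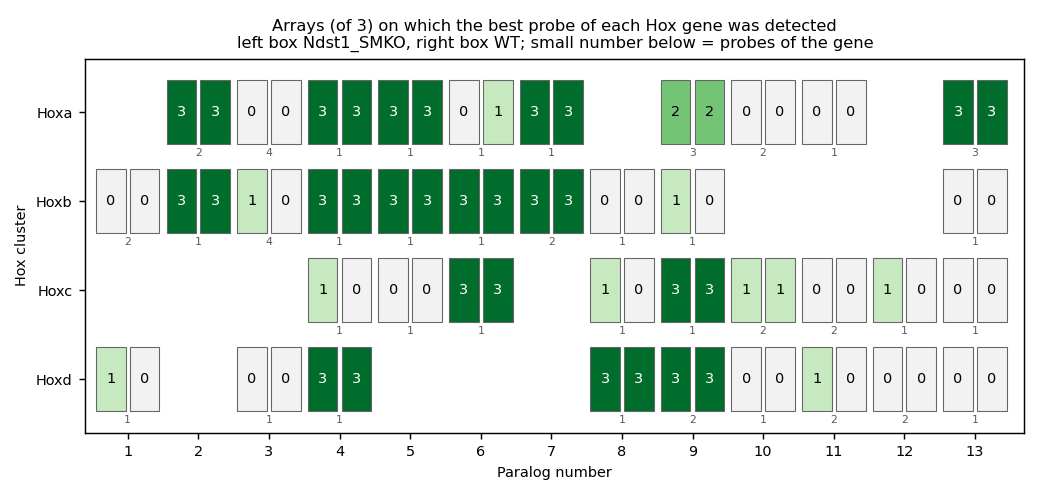
Detection of each Hox gene by cluster (rows) and paralog number (columns), with the number of arrays out of 3 on which its most often detected probe was seen in Ndst1_SMKO (left box) and WT aortas (right box), and the number of its probes below the boxes. Full boxes (3 of 3) gather at paralogs 4 to 8, and at paralogs 10 to 13 only Hoxa13 has them.

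Hox genes of the posterior end, which pattern the lumbar region, tail, limbs and urogenital tract, were almost undetected. Of 12 genes with numbers 10 to 13, 1 was tested, Hoxa13, through 1 of its 3 probes. That probe was detected on all 6 arrays, with intensities of 184, 185 and 191 in Ndst1_SMKO and 167, 192 and 173 in WT aortas. Its other probes were detected on 1 and 0 of the 6 arrays. The probes of Hoxa13, a gene of the distal limb and hindgut, thus disagree on its detection.

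The 22 genes that were not tested are Hoxa3, Hoxa6, Hoxa10, Hoxa11, Hoxb1, Hoxb3, Hoxb8, Hoxb9, Hoxb13, Hoxc4, Hoxc5, Hoxc8, Hoxc10, Hoxc11, Hoxc12, Hoxc13, Hoxd1, Hoxd3, Hoxd10, Hoxd11, Hoxd12 and Hoxd13. Together with untested probes of tested genes they have 37 probes, of which 27 were detected on no array and 10 on 1 or 2. In single readings, 9 of 111 were detected in Ndst1_SMKO aortas (8.11%) and 2 of 111 in WT aortas (1.80%). Over all untested probes of the array the shares were 4.58% in Ndst1_SMKO and 3.82% in WT aortas, and the threshold alone lets through 5%. Intensities of the untested Hox probes lay between 107.6 and 172.1, while the dimmest detected probe of any kind stood between 136.0 and 148.9, depending on the array. The untested genes are therefore at or near the background of the arrays, which does not show that they are silent.

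Between the genotypes, the tested Hox genes of clusters B and D all had positive differences, and those of clusters A and C lay around 0. The sign of Hoxb2, of cluster B, turned when WT replicate 3 was left out. Values below are normalized log2 intensities and their differences, Ndst1_SMKO minus WT, with limma's standard error and n = 3 arrays per genotype. Each gene is represented by its tested probe with the highest mean over the 6 arrays, called its gene probe. The median difference was 0.41 over the 3 genes of cluster D (range 0.29 to 0.51), 0.32 over the 5 of cluster B (0.06 to 0.44), 0.07 over the 6 of cluster A (-0.21 to 0.18) and -0.10 over the 2 of cluster C (-0.18 to -0.02). The order of clusters B and D depends on the processing, since without WT replicate 3 the median was 0.26 for cluster D and 0.38 for cluster B, and without background correction 0.13 and 0.22. By axial range it was 0.12 for paralogs 1 to 3, 0.30 for paralogs 4 to 8 and 0.04 for paralogs 9 to 13. The last has no stable sign, lying between -0.098 and 0.096 when 1 array was left out. It was negative without Ndst1_SMKO replicate 1 (-0.098) and without WT replicate 1 (-0.025), 2 (-0.014) or 3 (-0.059). The medians by axial range also depend on which clusters were tested in each range. Among paralogs 4 to 8, genes of clusters B and D lay at 0.29 to 0.51 and those of clusters A and C at -0.21 to 0.14. Among paralogs 9 to 13, Hoxd9 lay at 0.29 and the genes of clusters A and C at -0.18 to 0.10. Among paralogs 1 to 3, Hoxb2 lay at 0.06, below Hoxa2 at 0.18. All 16 genes had a median of 0.16, with 12 above 0 and 4 below, where the 10076 genes tested had a median of 0.00 and 51% above 0.

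Few Hox genes passed the test. In limma, with Benjamini-Hochberg adjustment over all 17954 tested probes and a threshold of 0.05, 2 of the 16 genes were higher in Ndst1_SMKO aortas, Hoxb4 and Hoxb5. Over all tested genes 7.35% were called, 4.61% higher and 2.74% lower. No Hox gene was called lower, and at an unadjusted p under 0.05 there were 6 higher and 0 lower, against 14% and 11.9% of all tested genes. For 6 Hox genes all 3 mutant values lay above all 3 WT values, and for 0 did they lie below, against 18% and 16.1% of all tested genes. These are Hoxb4, Hoxb5, Hoxb6, Hoxb7, Hoxd4 and Hoxd8. With so few genes called, nothing particular to the Hox set can be read from the count.

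Counted by probe, 4 of the 20 were called higher and 0 lower, against 4.32% and 3.12% of all tested probes (7.44% in either direction). For 8 Hox probes the mutant values all lay above the WT values and for 0 below, against 16.1% and 16.3% of all tested probes. The additional probes belong to Hoxb7 and Hoxd9, and the one of Hoxd9 was tested only because the 3 mutant arrays detected it, so it had to differ and adds no support. The standard errors of the Hox probes were 0.07 to 0.19, which limits the differences that 3 arrays per genotype can show. The standard deviation between arrays of a genotype had a median of 0.14 for them and 0.13 for all tested probes.

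**Figure D2:**
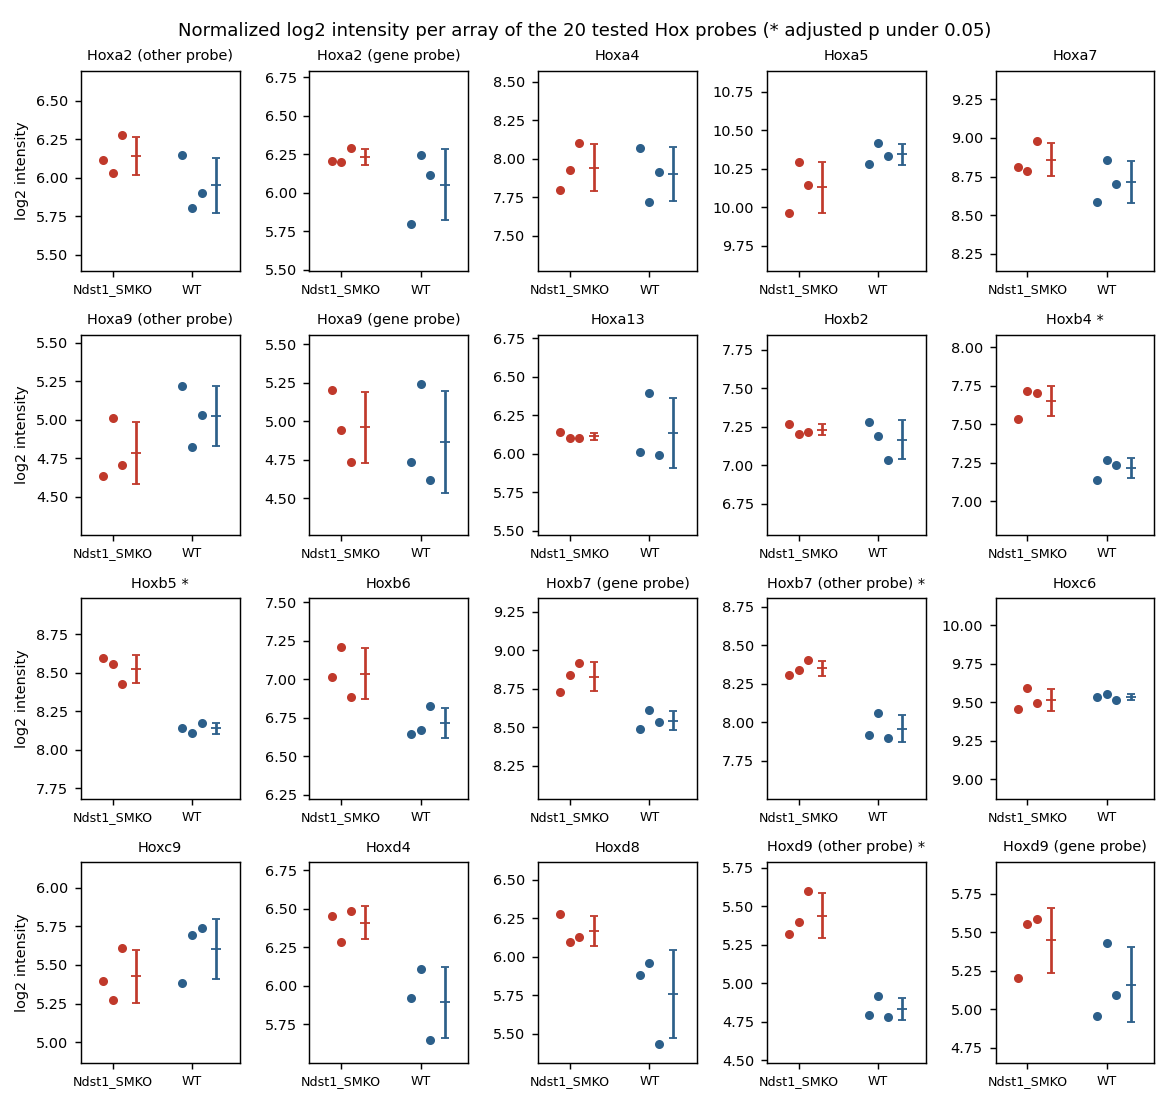
Normalized log2 intensity of each of the 20 tested Hox probes on every array, Ndst1_SMKO left (red) and WT right (blue), each panel with its own scale, and the bar beside the points giving the mean ± SD of 3 arrays. The points of the genotypes stand apart for Hoxb4 (7.54 to 7.72 against 7.14 to 7.27) and overlap for Hoxa4 and Hoxc6.

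Cluster B held both called genes, at neighbouring positions. Hoxb4, known for expanding blood stem cells when overexpressed, stood at 7.54, 7.72 and 7.70 in Ndst1_SMKO aortas, against 7.14, 7.27 and 7.24 in WT aortas. The lowest mutant array lay above the highest WT array. The difference was 0.44 ± 0.08 (95% interval 0.24 to 0.64), or 1.35-fold, with limma adjusted p = 0.0295. Hoxb5, which acts in neural crest of the gut and in early endothelium, stood at 8.59, 8.56 and 8.43 in Ndst1_SMKO aortas, against 8.14, 8.11 and 8.17 in WT aortas. These groups did not overlap either. Hoxb5 was 1.31-fold higher (0.39 ± 0.08, 95% interval 0.20 to 0.57, limma adjusted p = 0.0336).

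Both calls were mostly lost when 1 array was left out. Calls over all tested probes also fell then, from 1336 to between 404 and 532. With 1 array left out, Hoxb4 stayed below the threshold of 0.05 only without Ndst1_SMKO replicate 1, at a limma adjusted p of 0.04998. It was lost without Ndst1_SMKO replicates 2 (0.0945) and 3 (0.0891) and without WT replicates 1 (0.0892), 2 (0.0715) and 3 (0.0753). Hoxb5 was lost whichever array was left out, with limma adjusted p of 0.101, 0.102 and 0.0584 without Ndst1_SMKO replicates 1, 2 and 3, and 0.0903, 0.0959 and 0.0781 without WT replicates 1, 2 and 3. Their differences kept their direction in every case, at 0.39 to 0.49 for Hoxb4 and 0.35 to 0.43 for Hoxb5. Both calls were also lost when all probes were tested without a filter, at limma adjusted p of 0.0544 for Hoxb4 and 0.0634 for Hoxb5.

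The remaining cluster B genes followed in part. Hoxb7, active in the embryonic kidney ducts, has 2 tested probes. Its gene probe stood at 8.73, 8.84 and 8.92 in Ndst1_SMKO aortas, against 8.49, 8.61 and 8.53 in WT aortas, and differed by 0.29 ± 0.08 (limma adjusted p = 0.0841). Its other probe stood at 8.31, 8.34 and 8.40 in Ndst1_SMKO aortas, against 7.92, 8.06 and 7.89 in WT aortas. Neither probe had overlapping groups, and the second passed at 0.39 ± 0.08 (limma adjusted p = 0.0337). That call was lost whichever array was left out, at 0.0824, 0.0955 and 0.1002 without Ndst1_SMKO replicates 1, 2 and 3, and 0.0947, 0.0578 and 0.0944 without WT replicates 1, 2 and 3.

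Hoxb6, a gene of the trunk lateral plate mesoderm, stood at 7.02, 7.21 and 6.88 in Ndst1_SMKO aortas, against 6.65, 6.67 and 6.83 in WT aortas. The groups stood apart by a narrow margin, and the difference of 0.32 ± 0.11 did not pass (limma adjusted p = 0.115). Hoxb2, a hindbrain gene and the only tested gene of the cluster's front end, stood at 7.27, 7.20 and 7.22 in Ndst1_SMKO aortas, against 7.28, 7.19 and 7.03 in WT aortas. These groups overlapped, and the difference was 0.06 ± 0.09 (limma adjusted p = 0.698).

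None of the 3 gene probes of cluster D passed, and their errors were larger than in cluster B. Hoxd4, which responds to retinoic acid in the hindbrain and patterns the neck vertebrae, stood at 6.45, 6.29 and 6.49 in Ndst1_SMKO aortas, against 5.92, 6.11 and 5.65 in WT aortas. The groups did not overlap, and the difference of 0.51 ± 0.13 (95% interval 0.21 to 0.82) missed the threshold at limma adjusted p = 0.0579. Whether Hoxd4 passes depends on the processing, since it did so under 9 of 17 alternatives, with limma adjusted p between 0.0129 and 0.149. Among these, testing only probes detected on all 6 arrays was enough to bring it under 0.05.

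Hoxd8, a gene of the trunk, stood at 6.28, 6.09 and 6.13 in Ndst1_SMKO aortas, against 5.88, 5.96 and 5.43 in WT aortas. The groups did not overlap, WT replicate 3 being lowest, and the difference was 0.41 ± 0.15 (limma adjusted p = 0.141). Without WT replicate 3 it was 0.24.

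The probes of Hoxd9, which acts in the lumbar spinal cord and the limb, gave different results. Its gene probe was detected on all 6 arrays and stood at 5.20, 5.56 and 5.58 in Ndst1_SMKO aortas, against 4.96, 5.43 and 5.09 in WT aortas. The groups overlapped, and the difference was 0.29 ± 0.16 (limma adjusted p = 0.302). Its other probe was detected on 3 mutant arrays and 0 WT arrays, at 5.32, 5.40 and 5.60 in Ndst1_SMKO aortas, against 4.80, 4.92 and 4.79 in WT aortas. Since that probe has only a bound in WT aortas, it is given as at least 1.39-fold higher (limma adjusted p = 0.0177). The bound sets the mutant mean against the mean over WT arrays of the lowest signal of any detected probe, or of the probe's own signal where that was higher. It lost the call without Ndst1_SMKO replicate 2 (0.0600) or 3 (0.0508) and without WT replicate 1 (0.0600) or 3 (0.0578).

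Cluster A genes did not pass the test. Hoxa5, needed for lung and upper thoracic patterning, was the tested Hox gene with the most negative difference. It stood at 9.96, 10.29 and 10.14 in Ndst1_SMKO aortas, against 10.28, 10.42 and 10.34 in WT aortas. The groups overlapped by a little, and the difference was -0.21 ± 0.10 (95% interval -0.45 to 0.03, limma adjusted p = 0.247). It was called lower under 3 of 17 alternatives, with limma adjusted p of 0.0440 without background correction, 0.0386 with a trended and robust spread model and 0.00821 in the authors' processed values.

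Hoxa4, a gene of the neck region, stood at 7.80, 7.93 and 8.10 in Ndst1_SMKO aortas, against 8.07, 7.72 and 7.92 in WT aortas, and its groups overlapped fully (0.04 ± 0.12). Hoxa7, which acts at the level of the ribs, stood at 8.81, 8.78 and 8.98 in Ndst1_SMKO aortas, against 8.59, 8.86 and 8.70 in WT aortas. Its groups overlapped as well (0.14 ± 0.10, limma adjusted p = 0.423). Hoxa2, the selector gene of the second branchial arch, gave 0.18 ± 0.12 and 0.19 ± 0.12 by its probes, both with overlapping groups. Hoxa9 gave 0.10 ± 0.19 by its gene probe and -0.24 ± 0.14 by the other, so its probes disagree in sign. Hoxa13 differed by -0.02 ± 0.12, and the sign turned with several alternatives.

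Only Hoxc6 and Hoxc9 were tested in cluster C. Hoxc6, a marker of the front thorax, stood at 9.45, 9.59 and 9.50 in Ndst1_SMKO aortas, against 9.54, 9.55 and 9.51 in WT aortas. It was the most precisely measured Hox gene, and its difference was -0.02 ± 0.07 (limma adjusted p = 0.890), without a stable sign. Hoxc9, which marks the thoracic motor columns of the spinal cord, stood at 5.40, 5.27 and 5.61 in Ndst1_SMKO aortas, against 5.38, 5.70 and 5.74 in WT aortas. Those groups overlapped, and the difference was -0.18 ± 0.13 (limma adjusted p = 0.436).

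**Figure D3:**
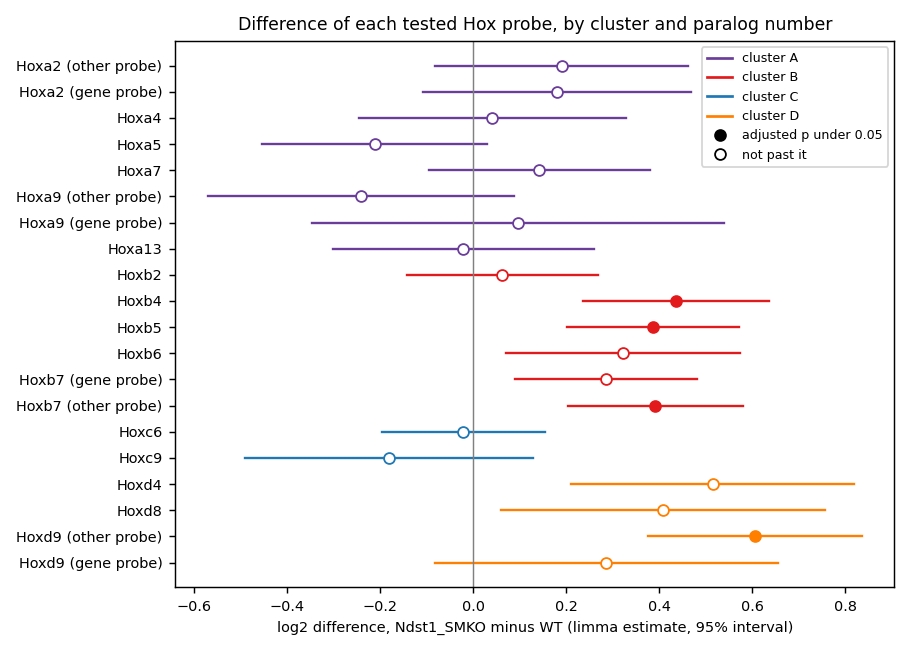
Difference in log2 intensity (Ndst1_SMKO minus WT) of each tested Hox probe with limma's 95% interval, ordered by cluster and paralog number, filled where the adjusted p was under 0.05. Hoxb4 (0.44), Hoxb5 (0.39), 1 probe of Hoxb7 (0.39) and 1 probe of Hoxd9 are filled, while the intervals of all cluster A and cluster C probes cross 0.

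Genes with the same paralog number descend from 1 ancestor and act at similar axial levels, so pairs of them were compared within each array. For 10 such pairs the difference between the genes' log2 values was taken on every array and its mean compared between genotypes, which removes a shift common to both log2 values. The arrays were already quantile normalized. Each shift equals the first gene's difference minus the second's, both from the same values as above, so it adds no independent support. Hoxb5 minus Hoxa5 was -1.37, -1.73 and -1.72 in Ndst1_SMKO aortas, against -2.14, -2.31 and -2.16 in WT aortas, a shift of 0.60 towards Hoxb5. Those groups did not overlap. Only the shift can be read, since the offset between probes of different genes has no meaning.

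The shift was 0.40 for Hoxb4 against Hoxa4, 0.34 for Hoxb6 against Hoxc6, 0.14 for Hoxb7 against Hoxa7 and -0.12 for Hoxb2 against Hoxa2. It was 0.47 for Hoxd4 against Hoxa4, 0.47 for Hoxd9 against Hoxc9, 0.19 for Hoxd9 against Hoxa9 and 0.28 for Hoxa9 against Hoxc9. Hoxb4 against Hoxd4 gave -0.08. A two-sided exact permutation test of 3 against 3 arrays cannot go below 0.1, which became 0.2 after Benjamini-Hochberg adjustment over the 10 pairs, so none of these shifts could pass. Pairs that share a gene are not independent of each other.

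For some genes a probe may also read a neighbour. In RefSeq, Hoxb4 lies within the span of Hoxb3, Hoxd4 within that of Hoxd3, and Hoxa4 and Hoxa5 within that of Hoxa3. No probe named for these longer genes was detected on enough arrays to be tested. Hoxb5 and Hoxb6 lie within the noncoding gene Hoxb5os and Hoxd8 within Gm38462. Which of these transcripts the probes bind was not tested here.

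Hox proteins bind DNA with partners of the Pbx, Meis and Pknox families, and 7 of the 9 partner genes with a probe were tested. None passed in limma, while at an unadjusted p under 0.05 there were 3 higher and 0 lower, a threshold that 14% of all tested genes passed upwards and 11.9% downwards. These 3 were Meis1, Meis2 and Pbx2. Meis1, a partner of many Hox proteins in heart and blood development, stood at 8.31, 8.57 and 8.21 in Ndst1_SMKO aortas, against 7.93, 8.0 and 7.96 in WT aortas. Its groups did not overlap (0.40 ± 0.11, limma adjusted p = 0.0700), and it passed under 7 of 17 alternatives. Meis2 differed by 0.29 ± 0.10 (limma adjusted p = 0.121) and Pbx2 by 0.23 ± 0.08 (limma adjusted p = 0.131). For Pbx2 the other probes gave 0.45 and -0.40, so its direction depends on the probe. Tgif1, which competes with Meis proteins for DNA, stood at -0.17. The median of the 7 was 0.23.

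Genes of retinoic acid signalling, with the Cdx genes and Gdf11 the known inputs that set Hox domains, had a median difference of -0.04. Of 21 with a probe 11 were tested, and Rarb, Rxrg and Dhrs3 were called lower and none higher, Dhrs3 by a probe that only WT arrays detected. Over all tested genes 2.74% were called lower and 4.61% higher. Rarb, a retinoic acid receptor that is itself induced by retinoic acid, stood at 6.50, 6.59 and 6.62 in Ndst1_SMKO aortas, against 6.95, 7.09 and 7.10 in WT aortas. The groups did not overlap, and Rarb was lower by limma (-0.48 ± 0.08, adjusted p = 0.0192). Another probe of Rarb gave -0.25, and the mean of both probes did not pass (limma adjusted p = 0.0553). The call was kept without WT replicate 1 (0.0380) and lost without Ndst1_SMKO replicate 1 (0.0656), 2 (0.0644) or 3 (0.0571) and without WT replicate 2 (0.0654) or 3 (0.0646).

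Rxrg, a partner of the retinoic acid receptors, stood at 6.98, 7.05 and 7.09 in Ndst1_SMKO aortas, against 7.52, 7.45 and 7.63 in WT aortas. It was lower without overlap (-0.49 ± 0.08, limma adjusted p = 0.0189). This call held only without WT replicate 2 (0.0458). It was lost without Ndst1_SMKO replicate 1 (0.0642), 2 (0.0642) or 3 (0.0546) and without WT replicate 1 (0.0591) or 3 (0.0602).

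Dhrs3, which turns retinaldehyde back into retinol, was detected on 0 mutant arrays and 3 WT arrays, at 4.56, 4.74 and 4.92 in Ndst1_SMKO aortas, against 5.71, 5.34 and 5.33 in WT aortas. It was at least 1.46-fold lower (limma adjusted p = 0.0296), and its other probe differed by -0.04. It was tested only because the 3 WT arrays detected it, so it had to differ and adds no support. The call was lost whichever array was left out, at 0.0885, 0.0917 and 0.0561 without Ndst1_SMKO replicates 1, 2 and 3, and 0.0663, 0.0627 and 0.0605 without WT replicates 1, 2 and 3. Rxra, another receptor partner, stood at -0.18 and did not pass.

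Of 28 Polycomb, trithorax and related chromatin genes with a probe, 24 were tested and none passed in limma, with a median of 0.11. At an unadjusted p under 0.05 there were 3 higher and 2 lower, against 14% and 11.9% of all tested genes. The 4 with the smallest p were Mtf2 (0.29, limma adjusted p = 0.0680), a Polycomb accessory protein, Kdm6a (0.22, 0.112), which removes the Polycomb mark, Kmt2a (0.22, 0.113), the trithorax methyltransferase that keeps Hox genes active, and its partner Men1 (-0.26, 0.117). Another probe of Kmt2a gave -0.18, so its direction depends on the probe.

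Among 34 other transcription factors that mark regions of the embryo, 16 were tested, with a median of 0.07. In limma 2 were called higher and 0 lower, against 4.61% and 2.74% of all tested genes. At an unadjusted p under 0.05 there were 3 higher and 3 lower, against 14% and 11.9% of all tested genes. Prrx1, a factor of limb and connective tissue mesenchyme, stood at 6.89, 6.77 and 6.86 in Ndst1_SMKO aortas, against 6.32, 6.50 and 6.30 in WT aortas (0.47 ± 0.09, limma adjusted p = 0.0265). Meox2, a homeobox factor of somites and vessels, stood at 8.47, 8.65 and 8.65 in Ndst1_SMKO aortas, against 8.20, 7.99 and 7.85 in WT aortas (0.58 ± 0.11, limma adjusted p = 0.0287). Neither gene's groups overlapped. Other probes of Prrx1 gave 0.21 and -0.02, and the mean of its probes gave 0.22 (limma adjusted p = 0.232). The Prrx1 call held without WT replicate 2 (0.0427) and was lost without Ndst1_SMKO replicate 1 (0.0856), 2 (0.0642) or 3 (0.0810) and without WT replicate 1 (0.0799) or 3 (0.0773). The Meox2 call held without WT replicate 1 (0.0324) and was lost without Ndst1_SMKO replicate 1 (0.0574), 2 (0.0927) or 3 (0.0889) and without WT replicate 2 (0.0830) or 3 (0.0749).

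Tbx3, a T-box factor, gave -0.28 by its gene probe (limma adjusted p = 0.114) and -0.61, -0.34 and 0.14 by its other probes, and Tbx18, a T-box factor of mural and epicardial cells, gave 0.29 (0.124). Of 16 transcription factors of the cardiac lineage 8 were tested, with a median of 0.30. In limma 3 were called higher and 0 lower, against 4.61% and 2.74% of all tested genes. The called genes were Hopx (0.60 ± 0.10, limma adjusted p = 0.0181), Gata6 (0.44 ± 0.08, 0.0255) and Mef2c (0.43 ± 0.08, 0.0259), while Hey1 stood at 0.27 (0.0744). The Hopx call held without WT replicate 1 (0.0205) and was lost without Ndst1_SMKO replicate 1 (0.0568), 2 (0.0661) or 3 (0.0563) and without WT replicate 2 (0.0591) or 3 (0.0608). The Gata6 call was lost whichever array was left out, at 0.0616, 0.0810 and 0.0807 without Ndst1_SMKO replicates 1, 2 and 3, and 0.0510, 0.0785 and 0.0753 without WT replicates 1, 2 and 3. Its other probe gave 0.14, and the mean of both gave 0.29 (0.113). The Mef2c call was lost in the same way, at 0.0522, 0.0836 and 0.0790 without Ndst1_SMKO replicates 1, 2 and 3, and 0.0759, 0.0710 and 0.0749 without WT replicates 1, 2 and 3. Its other probes gave 0.12 and 0.64.

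**Figure D4:**
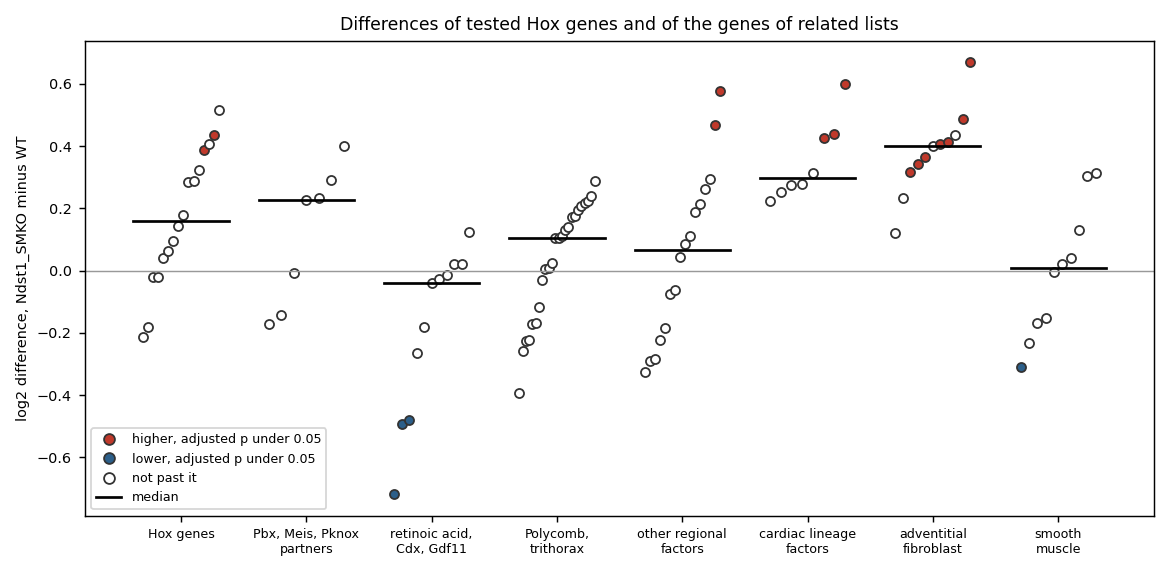
Difference in log2 intensity (Ndst1_SMKO minus WT) of each tested gene in 8 lists, filled where limma's adjusted p was under 0.05 (red higher, blue lower), with a black line at the list's median. The median is 0.16 for Hox genes, 0.23 for their partners, -0.04 for retinoic acid, Cdx and Gdf11 genes and 0.40 for adventitial fibroblast markers, and the lowest point of the retinoic acid list is Dhrs3, which has only a bound.

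Markers of other cell types moved between the genotypes alongside these Hox differences. For comparison with the counts below, 4.61% of all tested genes were called higher and 2.74% lower. Of 14 tested heart muscle markers 13 were higher in Ndst1_SMKO aortas, with a median of 3.04, and their mean log2 level was 9.45 to 9.49 in Ndst1_SMKO and 6.84 to 6.88 in WT aortas. In WT aortas 13 of the 14 were detected on all arrays, and Pln on none, so that Pln was tested only through the mutant arrays. The 3 with the smallest p were Actc1 (3.84), Myl4 (3.33) and Sln (4.08). Of 11 tested adventitial fibroblast markers 7 were higher and 0 lower, with a median of 0.40 and a mean log2 level of 9.78 to 9.83 in Ndst1_SMKO and 9.40 to 9.42 in WT aortas. These included Pi16 (0.67), Fbln1 (0.49) and Pdgfra (0.41), and all 11 were detected on every WT array.

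Of 11 tested endothelial markers 2 were higher, Cldn5 (0.51) and Vwf (0.45), against 4.61% of all tested genes. Their median was 0.21, and their mean log2 level 9.61 to 9.63 in Ndst1_SMKO and 9.38 to 9.47 in WT aortas, over the 11 markers. The 10 smooth muscle markers, which check the labelled tissue, were nearly all detected on every WT array (9 of 10). They had a median of 0.01 and a mean log2 level of 9.25 to 9.31 in Ndst1_SMKO and 9.24 to 9.34 in WT aortas, with only Lmod1 called (-0.31). At an unadjusted p under 0.05, 2 smooth muscle markers were higher and 3 lower, against 14% and 11.9% of all tested genes. Smaller lists were mixed. Scgb1a1 of the airway was higher (2.38) and Cyp2f2 lower (-0.68), the muscle gene Ckm was higher by at least 4.15-fold, the blood cell genes S100a8 (1.40) and S100a9 (1.26) were higher and Slc4a1 (-0.41) lower. Ckm was tested only because the mutant arrays detected it, so it had to differ and adds no support. None of the 8 brown fat, 6 white fat, 3 nerve and 1 thymus markers tested passed in limma, with 3 brown fat and 3 white fat genes lower and 1 nerve gene higher at an unadjusted p under 0.05 (11.9% of all tested genes were lower and 14% higher at it). The part of these cell types in the Hox differences was not tested.

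Under all 17 alternative settings Hoxb4, Hoxb5, Hoxb6 and the gene probe of Hoxb7 kept the direction of their differences. The other probe of Hoxb7 kept it under the 16 that apply to it. Hoxb2 kept its direction under 16 of 17 and lay at -0.0042 without WT replicate 3. The calls in cluster B were not kept in this way. Hoxb4 passed under 10 of 17 (limma adjusted p between 0.00147 and 0.0945) and Hoxb5 under 9 of 17 (0.000751 to 0.102). The size also depended on the processing. Without background correction the difference was 0.25 for Hoxb4, 0.18 for Hoxd4 and 0.13 for Hoxd8, since background that is left in shrinks the log2 differences of dim probes. Without normalization between arrays it was 0.60 for Hoxb4 and 0.70 for Hoxd4, and there the median of all tested probes itself lay 0.13 above 0.

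**Figure D5:**
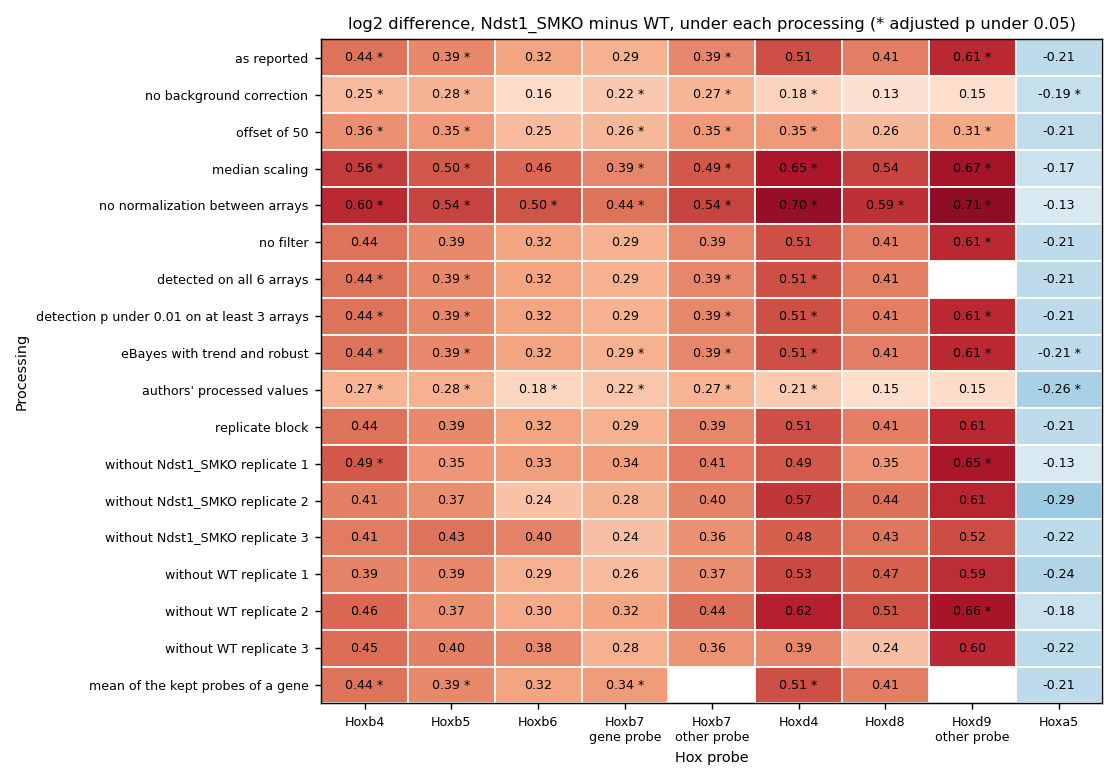
Difference in log2 intensity (Ndst1_SMKO minus WT) of 9 Hox probes (columns) as reported and under each alternative (rows), with a star where limma's adjusted p was under 0.05 and a blank where the probe was not in that fit. Every value for Hoxb4 is positive, from 0.25 to 0.60, and every value for Hoxa5 is negative, while stars are absent from most fits that leave out 1 array.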

How the data were processed

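Thoracic aorta RNA of 3 Ndst1_SMKO and 3 WT samples was measured on 1 bead array each. The deposited non-normalized table holds an average intensity per probe and array on a linear scale, not scaled between arrays, and beside it a detection p-value, both per the file headers. The submitters' processing notes name GenomeStudio, without a version. The authors' deposited processed table also holds linear intensity values, with a scaling that the sources used here do not state, and served only as an alternative.

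Non-normalized intensities were processed in R 4.3.3 with limma 3.58.1. With neqc, background was removed by normexp, guided by the deposited detection p-values, then 16 was added as an offset, the arrays were quantile normalized and log2 was taken. The offset understates differences of dim probes. The log2 values were thus computed here from the deposited intensities. The test covered 17954 of 45281 probes, those detected at p under 0.05 on 3 or more of the 6 arrays. Median intensities per array were 130.0 to 141.5, and 17549 to 18619 probes were detected per array. The number of arrays limits the precision. Platform annotation named 34885 probes with 1 gene, 18 with several and 10378 with none. Symbols of 10 probes were updated through RefSeq, and 10076 of 19053 named genes were tested. Genotypes were compared by two-sided limma tests (lmFit, eBayes), adjusted by Benjamini-Hochberg over all tested probes. The steps were also run on simulated data to check the code, and no statement about the Hox differences rests on that run.

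The Hox genes and the gene lists were chosen with earlier results of these data known. Every Hox gene is named, with values per array for those past the threshold, the 6 smallest p and those with groups apart. For Hox genes outside this rule such values were added. For other lists the genes past the threshold and up to 4 with the smallest p are named, and up to 3 for cell type markers. Alternatives changed background correction, normalization, filter, spread model, source of values, probe per gene, a block for the replicate number, and 1 array left out at a time. For named genes of the pathway lists these were added after seeing the data.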

Additional observations from a re-analysis of the deposited data

How the results depend on the processing

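Over 17 alternatives, the 20 Hox probes kept direction and side of the threshold in 266 of their fits, lost a call in 30, gained one in 22 and turned sign in 13. The slide could not be used as a block, since the files used here do not give it, and the cause of the changes was not tested. The 1336 called probes became 3145 without background correction, 2190 with an offset of 50, 2711 without normalization, 722 without a filter, 3086 with a trended and robust spread, 3493 in the authors' values and 404 to 532 without 1 array. In that order called Hox genes (2 as reported) were 5, 4, 6, 0, 5, 6 and 0 to 1, and 4 with median scaling or the mean of a gene's probes. Called Hox probes (4) were 8 without normalization, 1 without a filter, 7 with the trended spread, 7 in the authors' values and 0 to 2 without 1 array. Called genes of the related lists (8) were 17 without background correction, 13 with median scaling, 20 without normalization, 16 with the trended spread, 16 in the authors' values, 5 with the mean of probes and 0 to 3 without 1 array. Without a filter 38 Hox genes were tested. The median over Hox genes (0.16) was 0.33 without normalization and 0.12 to 0.24 without 1 array. For paralogs 1 to 3 (0.12) it was 0.30 and for cluster B (0.32) 0.50 without normalization. For paralogs 4 to 8 (0.30) it was 0.14 without background correction, 0.47 without normalization and 0.14 without a filter. For paralogs 9 to 13 (0.04) it was -0.021 with probes detected on all 6 arrays, -0.047 with the mean of probes and -0.098 to 0.096 without 1 array. For cluster C (-0.10) it was 0.053 without a filter. For cluster D (0.41) it was 0.13 without background correction, 0.26 with an offset of 50, 0.59 without normalization, 0.086 without a filter, 0.15 in the authors' values and 0.26 to 0.51 without 1 array. Signs turned for Hoxa13 (0.12 with median scaling, 0.16 without normalization, 0.00069 in the authors' values, -0.091 to 0.11 without 1 array), Hoxc6 (0.040 with median scaling, 0.084 without normalization, -0.059 to 0.0089 without 1 array) and Hoxa9 (-0.072 with the mean of probes). Without 1 array Hoxa9 lay at -0.026 to 0.29, Hoxa4 at -0.050 to 0.13 and Hoxb2 at -0.0042 to 0.12. The share of higher calls was 58.1% as reported, 82.9% with median scaling and 88.9% without normalization. With the replicate number as a block 364 probes, 0 Hox genes, 0 Hox probes and 0 genes of the related lists were called. Deviations of same-numbered samples correlated at -0.01, 0.01 and 0.02. No shared deviation was thus seen between same-numbered samples, which cannot exclude that they were paired.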

Other observations

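Genes next to the Hox clusters were read for comparison, within 1e+05 bases of each cluster in RefSeq. Evx1, a homeobox gene beside Hoxa13, was detected on 1 mutant and 3 WT arrays and stood at 4.63, 4.67 and 4.95 in Ndst1_SMKO aortas, against 5.12, 4.98 and 5.03 in WT aortas. The groups did not overlap, and the difference of -0.29 ± 0.11 did not pass (limma adjusted p = 0.143). Mtx2, a mitochondrial import gene beside Hoxd, differed by 0.20 ± 0.26. Probes of Hottip, Ttll6, Gm53, Skap1, Lnpk, Evx2 and Hoxd3os1 were detected too rarely to be tested. Groups of 3 arrays are too small to test for an outlying sample, so none was tested.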
